A study of Mus musculus with 16 samples.

Results

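Dorsal skin of male mice labelled as knockouts of both receptors for tumour necrosis factor (TNF) was compared with and without exposure to ultraviolet B light (UVB). The comparison uses 8 of the 16 RNA libraries of the series, taken by genotype and treatment label alone. There are 4 libraries of Tnfrsf1a/b KO skin labelled 3xUVB (KO UVB 1 to 4) and 4 of Tnfrsf1a/b KO skin without UVB (KO control 1 to 4). The other 8 libraries, 4 of wild-type (WT) skin with 3xUVB and 4 of WT skin without it, are used only for values set beside those of KO skin. All libraries came from mice aged 8 weeks whose skin was labelled telogen, when follicles rest between growth cycles, and KO controls carry the same receptor knockout as the KO UVB libraries. Neither the labels nor the protocols state the part of each gene removed in the knockout, the UVB dose, the interval between exposures or the time from the last exposure to sampling. No label says that each library came from a separate mouse, so p-values rest on the spread among libraries, which may be technical.

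Total RNA was selected for poly(A), sequenced with strand kept, and counted per gene by the submitters. Reads in genes ranged from 18279418 to 23200649 across the KO libraries. A level below is a CPM value, the count scaled to library size with factors from the trimmed mean of M-values. A difference is the log2 fold change of KO UVB over KO control ± its standard error, so that a positive value is higher after UVB, and every value written below with ± is such a log2 difference. Adjusted p is from edgeR's quasi-likelihood test with Benjamini-Hochberg adjustment over all tested genes, and a gene is called, and said to have risen or fallen, at an adjusted p under 0.05. Gene lists are described by their counts of called members and their median, to be read against the same over all tested genes, given below.

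TNF acts through TNFR1, encoded by Tnfrsf1a and present on most cells, and TNFR2, encoded by Tnfrsf1b and found mainly on leukocytes and endothelium; TNFR1 recruits TRADD and RIPK1 and can signal to NF-kB or to caspase-8. In skin, UVB damages DNA, activates p53, and makes keratinocytes release TNF and cytokines of the IL-1 family. It is also known to be followed by keratinocyte division and a thicker epidermis and cornified layer, the dead outer sheet built of crosslinked proteins, filaggrin and lipids.

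The targeted genes were still read in every KO library. Tnfrsf1a was at 82.2, 93.9, 84.6 and 82.9 CPM in KO controls 1 to 4 and at 96.9, 89.3, 105 and 92.04 CPM in KO UVB 1 to 4, against 133 to 148 CPM in the WT controls. Its UVB difference in KO skin was 0.16 ± 0.07, adjusted p = 0.106. Tnfrsf1b was at 23.7, 24.9, 18.1 and 16.4 CPM in the KO controls and 16.7, 15.6, 27.9 and 20.04 CPM after UVB, against 44.4 to 69.6 CPM in the WT controls, with a difference of -0.05 ± 0.21, adjusted p = 0.878. For both genes the KO control levels lay below the WT control levels without overlap. Whole-gene counts do not show whether the exons deleted in an allele were read.

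UVB changed 5666 of 17531 tested genes in KO skin (32.3%), of which 3011 rose (17.2% of those tested) and 2655 fell (15.1%). The median over all tested genes was -0.0156. Beyond 2-fold, 660 genes rose and 659 fell, and beyond 4-fold 207 rose and 189 fell, whereas 2850 called genes changed by less than 1.5-fold. Scaling by library totals in place of trimmed means moved the split, with 2350 higher and 3449 lower calls (40.5% higher against 53.1%). CPM of the 8 libraries did not overlap between the groups for 25.1% of all tested genes, and 3954 called genes met this too.

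**Figure D1:**
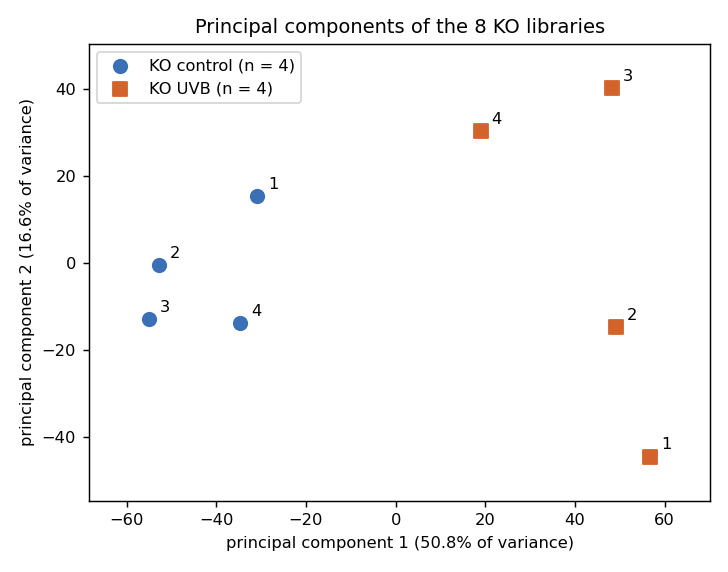
Principal components of log2 CPM of the 8 KO libraries, each point a library (n = 4 per group), with the share of variance on each axis. The first component (50.8%) separates the controls, at -55 to -30.8, from the UVB libraries, at 19 to 56.8, and the second (16.6%) spreads the UVB libraries from -44.4 to 40.2.

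The UVB libraries were not alike in the size of their response, as the plot of principal components shows. Of the 660 genes that rose beyond 2-fold, 72 (10.9%) lay within the range of the controls in KO UVB 4, against 16 (2.42%) in KO UVB 3. Of the 659 that fell beyond 2-fold, 92 (14%) lay within the control range in KO UVB 4, and 44 to 50 did so in each of the other UVB libraries. KO UVB 3 stood apart in inflammatory genes and KO UVB 4 in wound keratins, and both are named below where a value rests on them. They were the only pair left out together, which leaves KO UVB 1 and 2. Among the UVB libraries they had the highest medians of the interferon, T and NK cell, dendritic cell and chemokine lists. Lower values of these lists without the pair follow from its choice and are no separate support. Summed markers of several tissues differed between the groups. The summed level of 4 keratinocyte markers (Krt5, Krt14, Krt1 and Krt10) was 7270.2 to 11981 CPM in controls and 15915 to 54247 CPM after UVB, and all 4 rose. The call of Krt5 (adjusted p = 0.0242) was lost without KO control 1, 2 or 3 or KO UVB 1 (adjusted p 0.0593 to 0.0866). It was also lost in the 8 KO libraries alone (0.0658). The summed level of 4 fibroblast markers (Col1a1, Col3a1, Dcn and Pdgfra) was 35827 to 35993 and 21712 to 29157 CPM, but of these Col1a1 alone was called, while the counts of Pdgfra were 11763 over the controls and 12740 over the UVB libraries. All of these markers were above 0 in every group. In such bulk RNA, fewer cells of a type and less RNA per cell cannot be told apart, and the part of tissue makeup in the differences below was not tested.

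Genes of the cornified layer had the highest median of the gene lists. Among precursors of the cornified envelope, the crosslinked shell of dead keratinocytes, 32 of 37 tested genes rose (17.2% of all tested genes did) and 5 were not called, with a median of 2.38. Late cornified envelope gene Lce1f was at 44.3, 17.6, 26.9 and 36.8 CPM in controls and 346, 247, 221 and 219 CPM after UVB (3.04 ± 0.24, adjusted p = 3.05e-06). Its neighbour Lce1h stood at 18.4, 11.7, 14.1 and 20.4 CPM in controls and 159, 115, 102 and 85.6 CPM after UVB (2.84 ± 0.21, adjusted p = 3.05e-06). For both, the lowest UVB library exceeded the highest control more than 4-fold. Lce1e (3.08 ± 0.25) and Lce1i (2.38 ± 0.19) rose alike, and Sprr1b, a small proline-rich envelope protein, went from between 0.551 and 12.1 CPM in controls to between 51.6 and 296 CPM after UVB, with KO UVB 4 the lowest UVB library. Abundant envelope proteins moved less. Loricrin (Lor), at 1657, 2317, 2597 and 3232 CPM in controls and 5364, 3390.3, 2953 and 3132 CPM after UVB, overlapped between the groups (0.60 ± 0.22, adjusted p = 0.0471), and its call was lost when any of KO control 1, 2 or 3 or KO UVB 1 or 2 was left out (adjusted p 0.0583 to 0.172), in a model of the 8 KO libraries alone (0.118) and under scaling by library totals. Periplakin (Ppl) had a difference of 0.01 ± 0.18, adjusted p = 0.966. Near-identical copies within the Lce, Sprr, Stfa, Serpinb3, Krt6, Krtap and Hba families can be fitted by the same reads, so single members of these families are uncertain. The counts list 0 reads mapped to several places in every library, so what became of such reads cannot be told from them.

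**Figure D2:**
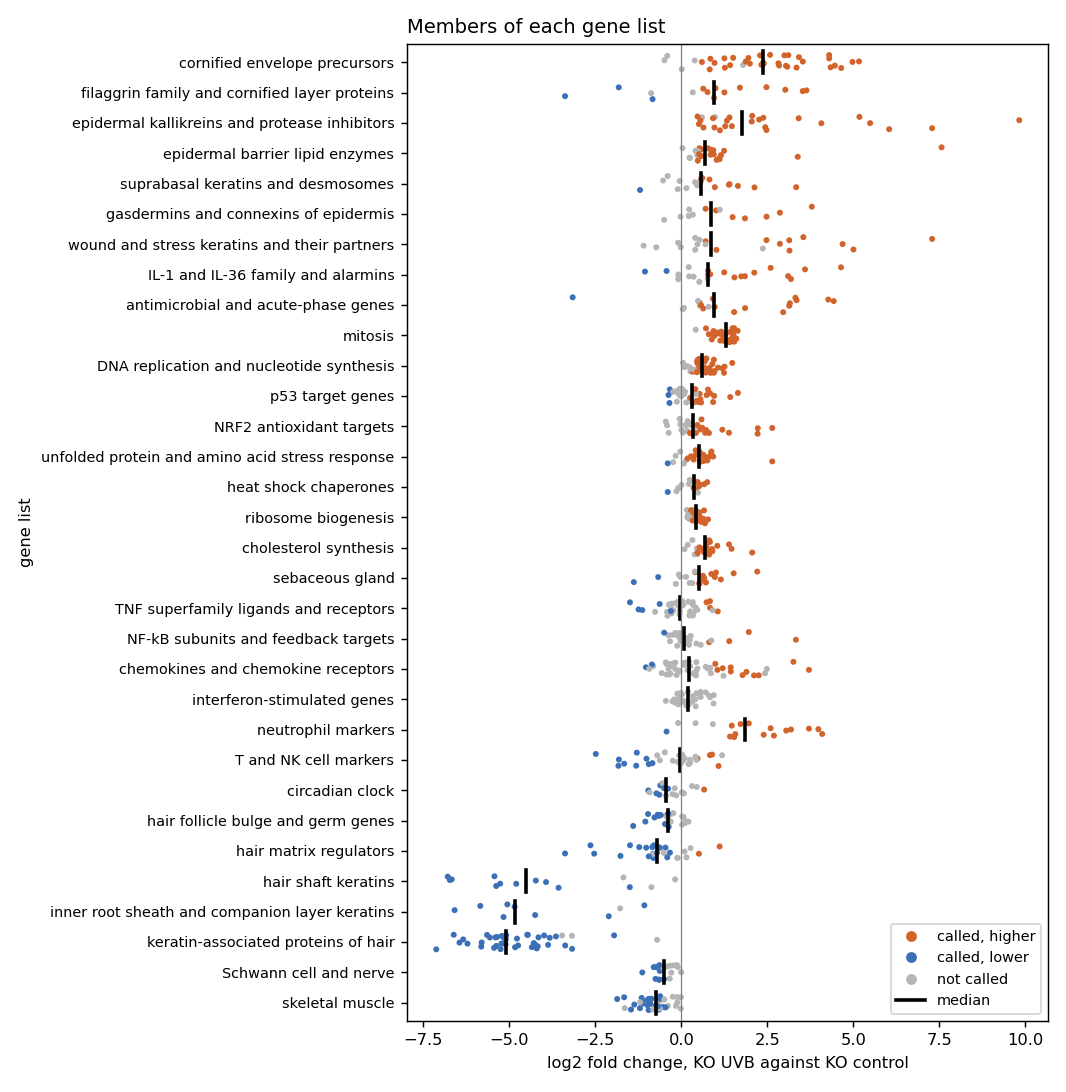
Log2 fold change of KO UVB over KO control for every tested member of 32 gene lists, with called members coloured by direction, uncalled members in grey and the list median as a bar. The medians of cornified envelope precursors (2.38) and of epidermal kallikreins and protease inhibitors (1.76) lie to the right of 0, and those of the hair lists (-4.51 to -5.09) lie to the left.

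Filaggrin, whose breakdown products hold water in the cornified layer, rose with the envelope genes. Flg was at 145, 126, 88.4 and 93.95 CPM in controls and 2370.2, 1569.7, 1074 and 621 CPM after UVB, a difference of 3.64 ± 0.34, adjusted p = 8.76e-06. The fused-type relative hornerin (Hrnr) was at 188, 109.9, 102 and 164 CPM in controls and 1288, 826, 614 and 398 CPM after UVB (2.47 ± 0.32, adjusted p = 9.08e-05). In both genes KO UVB 1 was the highest and KO UVB 4 the lowest UVB library, and all stood above the controls. Calm4, an epidermal calcium-binding protein, rose from between 274 and 529 CPM in controls to between 2248 and 4741 CPM after UVB (3.02 ± 0.27) and Calml3 by 1.7 ± 0.24. The filaggrin list as a whole had 10 of 15 members higher and 3 lower, with a median of 0.95. Among enzymes that process filaggrin or crosslink the envelope, 9 of 16 rose and 1 fell (median 0.54). Casp14, the caspase of filaggrin breakdown, stood at 51.1, 32.9, 37.9 and 51.8 CPM in controls and 547, 401, 249 and 170.3 CPM after UVB (2.98 ± 0.32, adjusted p = 2.92e-05). The filaggrin-cleaving protease gene Asprv1 rose by 1.86 ± 0.22, Blmh, which degrades filaggrin to amino acids, by 1.9 ± 0.19, and the transglutaminase gene Tgm3 by 3.0 ± 0.31.

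The list of epidermal kallikreins, serine proteases that cut the links between corneocytes, and of epidermal protease inhibitors had 24 of 26 tested members higher. The other 2 were not called, and the median was 1.76. In the whole kallikrein cluster on chromosome 7, from Klk1 to Klk14, 9 of 12 tested genes rose and 2 fell (median 1.3). Klk6 was at 42.6, 27.8, 27.1 and 37.05 CPM in controls and 208, 167, 242 and 112 CPM after UVB (2.44 ± 0.22, adjusted p = 8.22e-06). Klk8 rose by 2.38 ± 0.26 and Klk9 by 2.26 ± 0.22, and in neither did the groups overlap. The cysteine protease inhibitor Csta1 rose by 2.06 ± 0.22 as well. Enzymes of the barrier lipids, the ceramides and very long fatty acids between corneocytes, included 18 higher members of 24, with a median of 0.67 and 6 not called. Elovl4, which elongates fatty acids for acylceramides, was at 1003, 859.6, 1026 and 998 CPM in controls and 2935, 2476, 1916 and 1316 CPM after UVB (1.15 ± 0.20, adjusted p = 0.000803). Pnpla1, which makes acylceramides, rose by 1.11 ± 0.17 and the ceramide hydroxylase gene Degs2 by 3.38 ± 0.47. The groups did not overlap for any of these 3 genes. Olah, a thioesterase gene, was at 0 to 0.146 CPM in controls and 2.73 to 17.4 CPM after UVB.

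Keratins of the living epidermis were mixed, with Krt1 and Krt10 of the suprabasal layers among those that rose. Krt1, the first keratin of differentiating cells, was at 943, 606, 953 and 1354 CPM in controls and 18195, 10359, 6709 and 3714 CPM after UVB (3.34 ± 0.39, adjusted p = 4.72e-05), and its partner Krt10 rose by 1.64 ± 0.30. Both were highest in KO UVB 1 and, among the UVB libraries, lowest in KO UVB 4, without overlap with the controls. Desmosome genes Dsc1 (1.38 ± 0.22) and Dsg1b (1.4 ± 0.25), which hold suprabasal cells together, rose also. Of 19 genes in the suprabasal list 10 rose and 1, Krt77, fell (-1.2, adjusted p 0.0222), a gene named after its value was seen that lost its call without KO control 4 (0.0576) or KO UVB 1 (0.0587) and in the 8 KO libraries alone (0.0885). The count higher dropped to 6 without KO control 1, KO control 2 or KO UVB 1 and in the 8 KO libraries alone. In the basal layer, Krt14 stood at 1351, 1032, 1187 and 1865 CPM in controls and 7476, 6069, 4614 and 2574 CPM after UVB (1.93 ± 0.29, adjusted p = 0.000238), while Krt15, a basal and bulge keratin, fell from between 928 and 1838 CPM in controls to between 513 and 640.1 CPM after UVB (-1.4 ± 0.20, adjusted p = 0.0002). The basal list held 2 higher and 3 lower calls among 18 genes, with a median of 0.03, or 4 and 2 without KO UVB 4 and 2 and 1 without KO UVB 3 and 4 together. With all libraries 27.8% of the basal list was called, against 32.3% of all tested genes. Of 14 gasdermin and connexin genes of epidermis 7 rose and 7 were not called (median 0.86). Gasdermins can form membrane pores. Gsdma was at 69.8, 73.9, 69.4 and 71.3 CPM in controls and 259, 195, 196 and 149 CPM after UVB (1.49 ± 0.14, adjusted p = 7.18e-06), and Gsdmc rose by 3.79 ± 0.45, while Gsdmd, named after its value was seen, was not called (0.23 ± 0.22, adjusted p = 0.449).

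The wound keratin genes Krt16, Krt6a and Krt6b, which mark the activated epidermis of healing and inflamed skin, rose. Krt16 was at 63.2, 11.6, 10.97 and 60.8 CPM in controls 1 to 4 and 1169, 1118, 1280.5 and 201 CPM in UVB libraries 1 to 4, a difference of 4.69 ± 0.65, adjusted p = 0.000177. Its partner Krt6a stood at 135, 111, 70.2 and 132 CPM in controls and 1624, 1598, 1775 and 237 CPM after UVB (3.55 ± 0.45, adjusted p = 7.73e-05). KO UVB 4 was the lowest of the UVB libraries for both, yet still above every control. Krt6b, a near-identical copy of Krt6a, was at 85.6, 2.33, 2.82 and 79.03 CPM in controls, so that controls 1 and 4 stood far above controls 2 and 3. Of the 20 wound genes tested, 10 rose and 10 were not called, with a median of 0.86, and 3 were called lower without KO UVB 3 and 4 together. Keratin genes of the list that were not called, given after their values were seen, were Krt17 (0.53 ± 0.20, adjusted p = 0.0518), Krt8 (-1.1 ± 0.49, adjusted p = 0.0986) and Krt18 (-0.73 ± 0.58, adjusted p = 0.36). Without KO UVB 4 Krt17 was called higher (adjusted p 0.00696) and Krt8 lower (0.012). Gjb6, a connexin of activated epidermis, rose by 2.86 ± 0.40, and Slpi, a secreted protease inhibitor, was at 1.46, 1.06, 1.22 and 1.997 CPM in controls and 13.3, 10.3, 22.8 and 3.83 CPM after UVB (3.14 ± 0.43, adjusted p = 0.000147). The transcription factor genes Grhl3 (0.88 ± 0.20) and Ovol1 (0.93 ± 0.19), which act in late differentiation, rose, while Klf4 had a difference of 0.08 ± 0.15, adjusted p = 0.694.

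**Figure D3:**
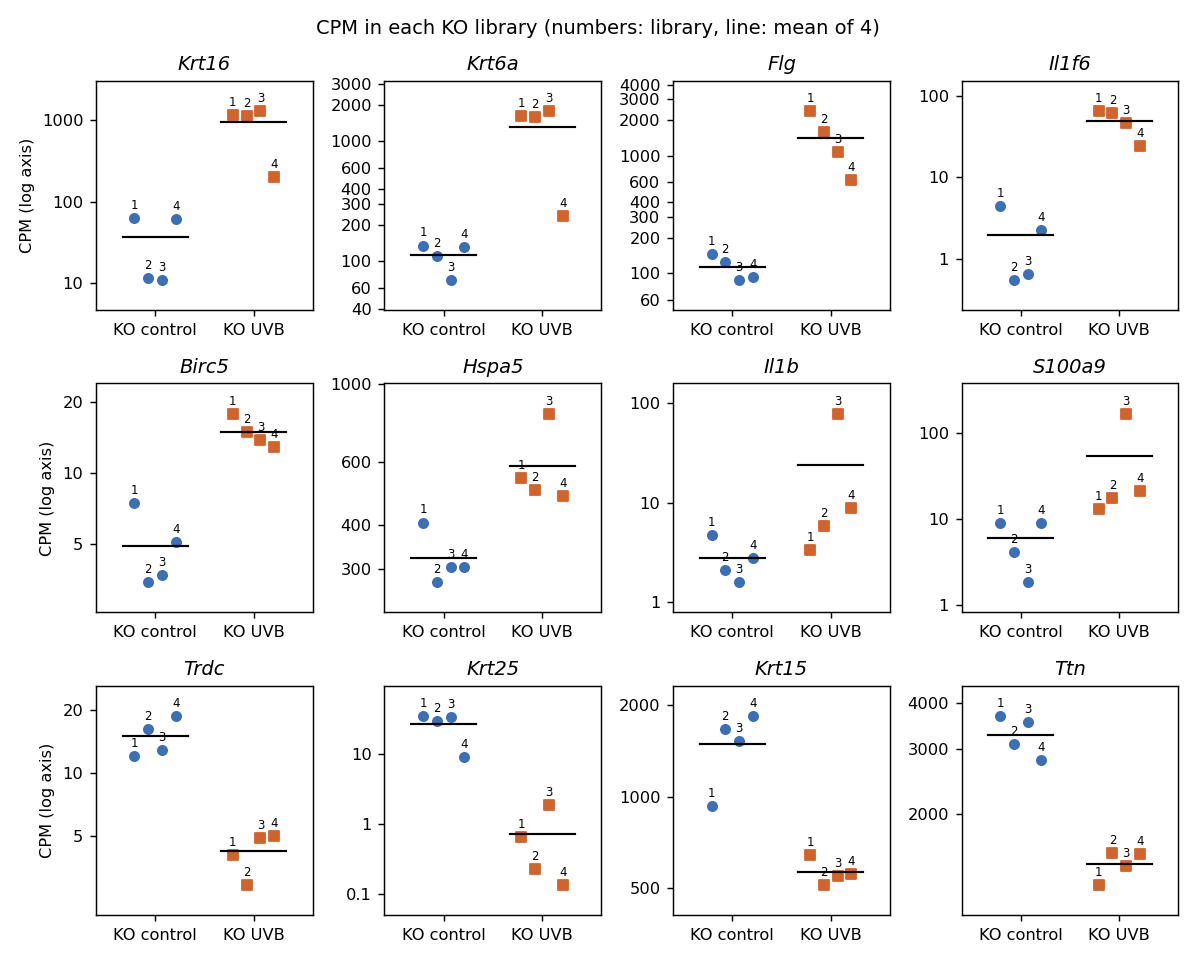
CPM of 12 genes in each KO library on log axes, with numbers for the library and a line for the mean of 4. In Krt16 and Krt6a KO UVB 4 lies below the other UVB libraries (237 against 1598 to 1775 CPM for Krt6a), in Il1b and S100a9 KO UVB 3 lies above them (78.2 and 167 CPM), and Trdc, Krt25, Krt15 and Ttn lie lower in every UVB library than in every control.

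IL-36 genes and Il1a, products of keratinocytes, rose in every UVB library. Il1f6, which encodes IL-36 alpha, was at 4.47, 0.551, 0.639 and 2.22 CPM in controls and 64.7, 61.1, 46.2 and 23.95 CPM after UVB (4.64 ± 0.56, adjusted p = 6.11e-05), or 5.49 without KO control 1. Il1f8, encoding IL-36 beta, rose by 3.59 ± 0.36, and Il1f5, encoding the IL-36 receptor antagonist, stood at 81.3, 60.2, 64.2 and 76.8 CPM in controls and 423, 339.7, 246 and 219 CPM after UVB (2.12 ± 0.20, adjusted p = 9.5e-06). The agonist and antagonist genes thus moved the same way, with no overlap of the groups. Il1a, an alarmin held in keratinocytes, was at 9.04, 7.67, 9.16 and 12.1 CPM in controls and 32.8, 25.3, 31.6 and 20.8 CPM after UVB (1.54 ± 0.18, adjusted p = 3.86e-05). Il1b, mainly a product of activated myeloid cells, was uneven: it stood at 4.71, 2.12, 1.597 and 2.77 CPM in controls and 3.38, 5.88, 78.2 and 8.79 CPM after UVB (3.1 ± 0.81, adjusted p = 0.0093). KO UVB 3 carried most of that signal, the groups overlapped, and without KO UVB 3 the difference was 1.11. The Il1b call was lost in a model of the 8 KO libraries alone (adjusted p 0.0563) and without KO UVB 3 and 4 together (0.199). Of 23 genes on the IL-1 list, 13 rose and 2 fell (median 0.78), and none fell without KO control 4, KO UVB 2 or KO UVB 3.

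Antimicrobial genes followed, with 14 of 20 higher, 1 lower and a median of 0.94. Defb14, the mouse relative of human beta-defensin 3, was at 1.65, 0.381, 0.852 and 2.72 CPM in controls and 11.3, 13.6, 18.1 and 13.1 CPM after UVB (3.35 ± 0.41, adjusted p = 6.11e-05). Chil1, a chitinase-like protein, went from between 3.19 and 9.23 CPM in controls to between 23.9 and 103 CPM after UVB (3.32 ± 0.41) and Defb1 from between 22.1 and 27.3 CPM in controls to between 37.8 and 61.7 CPM after UVB (0.97 ± 0.15). Ligands of the EGF receptor, which drive keratinocyte growth, split by member. Epgn, encoding epigen, was at 3.11, 4.28, 3.78 and 3.55 CPM in controls and 12.2, 9.36, 39.3 and 13.02 CPM after UVB (2.33 ± 0.37), with KO UVB 3 the highest library and a difference of 1.65 without it. Ereg, encoding epiregulin, rose by 1.42 ± 0.31. Btc, encoding betacellulin, fell from between 31.7 and 53.2 CPM in controls to between 9.37 and 15.7 CPM after UVB (-1.76 ± 0.22, adjusted p = 6.51e-05) and Egf fell from between 18.7 and 26.5 CPM in controls to between 11.96 and 13.5 CPM after UVB (-0.85 ± 0.13, adjusted p = 0.000261). The list held 4 higher and 3 lower calls among 17 genes, 5 higher and 5 lower without KO UVB 1, and 4 higher and 6 lower with limma voom. With all libraries 41.2% of the list was called, against 32.3% of all tested genes.

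Cell division genes rose nearly without exception. Of 36 mitosis genes, 35 rose and 1 (Ube2c, named after its value was seen) was not called, with a median of 1.29, and of 40 genes of DNA replication and nucleotide synthesis 33 rose and 7 were not called (median 0.60). Promoters of Cdca8, Ect2 and Cdc20 are shown because these mitosis genes rose together and hold both elements of the cell-cycle promoter class, a CCAAT box (CCAAT) and a cell-cycle homology region (CHR, TTTGAA). Capitals mark matches on either strand, which may overlap, so that ATTGG is a CCAAT box read on the other strand. Each run is 300 bases, from 250 before to 50 after the RefSeq start on GRCm38.p6, whereas the counts were made on GRCm39. They lie at chr4:124936868-124937167 (Cdca8), chr3:27153829-27154128 (Ect2) and chr4:118437294-118437593 (Cdc20), all on the minus strand and printed 5′ to 3′ of the gene.
Cdca8: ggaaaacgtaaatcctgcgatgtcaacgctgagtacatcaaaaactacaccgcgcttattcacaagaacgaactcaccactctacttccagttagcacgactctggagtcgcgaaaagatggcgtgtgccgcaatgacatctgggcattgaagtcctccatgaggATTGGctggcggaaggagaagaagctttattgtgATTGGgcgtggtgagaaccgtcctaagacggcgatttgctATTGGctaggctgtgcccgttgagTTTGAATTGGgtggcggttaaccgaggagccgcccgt
Ect2: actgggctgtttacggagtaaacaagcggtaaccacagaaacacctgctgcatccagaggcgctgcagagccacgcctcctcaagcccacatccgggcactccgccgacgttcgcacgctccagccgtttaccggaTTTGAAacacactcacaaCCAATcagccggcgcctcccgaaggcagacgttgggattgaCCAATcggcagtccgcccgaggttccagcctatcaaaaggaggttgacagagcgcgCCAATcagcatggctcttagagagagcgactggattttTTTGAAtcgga
Cdc20: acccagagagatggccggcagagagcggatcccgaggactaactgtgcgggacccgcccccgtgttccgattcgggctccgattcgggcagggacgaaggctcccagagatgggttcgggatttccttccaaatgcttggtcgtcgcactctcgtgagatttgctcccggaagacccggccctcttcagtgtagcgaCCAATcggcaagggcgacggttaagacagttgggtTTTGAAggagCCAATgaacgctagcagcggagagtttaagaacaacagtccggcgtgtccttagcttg

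RefSeq promoters were found for 28 of the 36 mitosis genes. Shares here are of genes, and a gene holds an element if any of its promoters does. A CHR was held by 21 of 28 (75%), against 20.2% of all 27025 genes with a promoter of that length. On the replication list 12.5% of such genes held it. The CCAAT box was held by 75% of the mitosis genes and by 41.1% of all. These matches describe letters and not binding. Cdca8, a subunit of the chromosomal passenger complex, was at 8.02, 4.92, 5.11 and 6.82 CPM in controls and 23.5, 17.9, 16.7 and 12.3 CPM after UVB (1.5 ± 0.20, adjusted p = 0.000104). Birc5, encoding survivin of the same complex, stood at 7.44, 3.43, 3.67 and 5.102 CPM in controls and 17.8, 14.9, 13.8 and 12.9 CPM after UVB (1.6 ± 0.24, adjusted p = 0.000261). Cdc20, an activator of the anaphase-promoting complex, rose by 1.53 ± 0.24, the cytokinesis factor gene Ect2 by 1.16 ± 0.18 and topoisomerase gene Top2a by 1.42 ± 0.23. All 5 had every UVB library above every control, with KO UVB 4 the lowest of the UVB libraries. Of the replication genes, Rrm2, a subunit of ribonucleotide reductase, was at 15.99, 11.6, 12.6 and 13.9 CPM in controls and 37.1, 30.8, 31.7 and 28.1 CPM after UVB (1.24 ± 0.11, adjusted p = 5.06e-06). Cyclin E genes Ccne1 (1.25 ± 0.21) and Ccne2 (1.07 ± 0.14), which drive entry into S phase, rose too. The proliferation marker Mki67 was at 76.9, 53.7, 50.7 and 53.6 CPM in controls and 193, 161, 137 and 78.4 CPM after UVB (1.28 ± 0.25, adjusted p = 0.00176), so that KO UVB 4 reached only just past KO control 1.

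Targets of p53 rose by smaller amounts and more evenly among libraries. Cdkn1a, which encodes the cell-cycle inhibitor p21, was at 136, 141, 159.8 and 175 CPM in controls and 323, 272, 277 and 313 CPM after UVB (0.95 ± 0.10, adjusted p = 1.66e-05). Pmaip1, encoding the cell death protein NOXA, stood at 5.39, 5.26, 4.74 and 4.603 CPM in controls and 13.3, 12.3, 15.2 and 12.8 CPM after UVB (1.42 ± 0.12, adjusted p = 4.48e-06). The kinase gene Plk3 rose by 0.92 ± 0.10 and the nuclease gene Aen by 0.84 ± 0.09. In these 4 genes KO UVB 4 lay within the range of the other UVB libraries or above it. Mdm2, the p53 inhibitor, differed by 0.25 ± 0.07, adjusted p = 0.0176, a call lost without KO control 2 (adjusted p 0.0577) or without KO UVB 3 (0.051), with limma voom (0.0571) and under scaling by library totals. The Mdm2 call was also lost in the 8 KO libraries alone (0.0628) and without KO UVB 3 and 4 together (0.205). The p53 list had 15 of 33 members higher and 3 lower, with a median of 0.32. Of 21 nucleotide excision repair genes 7 rose and 2 fell, 42.9% of the list against 32.3% of all tested genes. Ercc1, part of the nuclease that cuts beside UV lesions, rose from between 20.2 and 25.6 CPM in controls to between 35.2 and 56.8 CPM after UVB (0.91 ± 0.14), whereas the damage sensor gene Xpc fell from between 28.5 and 33.2 CPM in controls to between 23.6 and 24.1 CPM after UVB (-0.34 ± 0.07). Polh, encoding the polymerase that copies past UV dimers, rose by 0.49 ± 0.11. Of 28 NRF2 antioxidant targets 15 rose and 13 were not called (median 0.34), among them Gsta4, a glutathione transferase gene (2.22 ± 0.31), and Cbr3 (1.19 ± 0.15), while the ferritin gene Fth1 had a difference of 0.00 ± 0.14, adjusted p = 0.992.

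Chaperones of the endoplasmic reticulum (ER) rose in KO skin. On the unfolded protein and amino acid stress list 21 of 27 rose and 1 fell, with a median of 0.52. Promoters of Calr, Hspa5 and Canx are printed because they hold the ER stress element, CCAAT and CCACG separated by 9 bases. It was held by 6 of 25 genes of this list with a promoter (24%) and by 37 of all such genes (0.137%). Canx lies outside the naming rule and was picked for holding the element. Capitals mark both parts of the element on either strand, over the same 300-base window of GRCm38.p6. They lie at chr8:84846882-84847181 (Calr, minus strand), chr2:34771840-34772139 (Hspa5, plus strand) and chr11:50325624-50325923 (Canx, minus strand).
Calr: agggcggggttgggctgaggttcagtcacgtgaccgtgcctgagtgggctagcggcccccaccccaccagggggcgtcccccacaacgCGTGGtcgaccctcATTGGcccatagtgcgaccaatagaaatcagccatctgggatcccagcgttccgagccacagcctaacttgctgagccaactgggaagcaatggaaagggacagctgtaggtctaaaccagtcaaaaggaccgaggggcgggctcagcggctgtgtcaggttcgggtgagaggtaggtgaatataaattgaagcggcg
Hspa5: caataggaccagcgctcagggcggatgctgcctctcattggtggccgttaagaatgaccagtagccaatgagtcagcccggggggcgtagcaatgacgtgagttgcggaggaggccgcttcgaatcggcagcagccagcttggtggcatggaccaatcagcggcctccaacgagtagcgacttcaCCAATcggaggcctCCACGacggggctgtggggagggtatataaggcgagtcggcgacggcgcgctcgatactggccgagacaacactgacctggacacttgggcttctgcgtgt
Canx: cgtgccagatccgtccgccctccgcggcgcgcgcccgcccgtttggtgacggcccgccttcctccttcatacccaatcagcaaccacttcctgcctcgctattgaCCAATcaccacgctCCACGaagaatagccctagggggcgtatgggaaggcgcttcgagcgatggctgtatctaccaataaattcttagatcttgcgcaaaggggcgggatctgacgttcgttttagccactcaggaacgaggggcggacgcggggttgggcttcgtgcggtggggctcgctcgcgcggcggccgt

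Hspa5, encoding the ER chaperone BiP, was at 405, 275, 304 and 304 CPM in controls and 541, 502, 824 and 483 CPM after UVB (0.87 ± 0.16, adjusted p = 0.00127). Calr, encoding calreticulin, stood at 467, 365, 366 and 379 CPM in controls and 605, 609.9, 771 and 574 CPM after UVB (0.70 ± 0.12, adjusted p = 0.000612). Canx, encoding calnexin, rose by 0.36 ± 0.08 (adjusted p = 0.00387). Every UVB library exceeded every control for these genes. The disulfide isomerase gene Pdia4 rose by 0.65 ± 0.10 and Pdia3 by 0.53 ± 0.10, and Psat1, of serine synthesis, by 0.87 ± 0.12. Cytosolic and mitochondrial heat shock chaperones had 8 of 17 members higher and 1 lower (median 0.36). Hspa8, the constitutive HSP70, was at 699, 470.2, 527 and 554 CPM in controls and 945, 862, 898 and 863 CPM after UVB (0.66 ± 0.12, adjusted p = 0.000798), and its co-chaperone gene Dnaja1 rose by 0.53 ± 0.10. Ribosome biogenesis genes had 22 of 29 higher and 7 not called (median 0.42), with Fbl, the rRNA methyltransferase fibrillarin, at 29.4, 26.7, 29.02 and 28.3 CPM in controls and 49.9, 42.6, 54.5 and 35.9 CPM after UVB (0.69 ± 0.11, adjusted p = 0.000427), and Npm1 higher by 0.63 ± 0.11. In WT skin, where 18.8% of tested genes were called for UVB, these 3 lists had few calls: 3 higher for the ER list, 1 lower for heat shock and 1 higher for ribosome biogenesis. The difference between the genotypes was not called for any member. At an unadjusted interaction p under 0.05 stood 13 of 27, 6 of 17 and 11 of 29 members, against 12.8% of all tested genes, among them Pdia4 (WT -0.08 ± 0.10, interaction 0.73 ± 0.14, adjusted p = 0.0826) and Hspa5 (WT 0.01 ± 0.16, interaction 0.86 ± 0.23, adjusted p = 0.179). Such shares were not particular to these lists. Of skeletal muscle genes 14 of 37 stood there, of macrophage genes 10 of 28 and of neutrophil genes 7 of 18. Of the 36 mitosis and 40 replication genes 0 did.

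Cholesterol synthesis rose with 19 of 24 genes higher, 5 not called and a median of 0.69, and 12 were higher in the 8 KO libraries alone. Idi1, an isomerase of the pathway, stood at 22.5, 13.9, 19.01 and 21.6 CPM in controls and 70.8, 75.02, 36.2 and 29.6 CPM after UVB (1.46 ± 0.27, adjusted p = 0.000996). KO UVB 1 and 2 were higher than KO UVB 3 and 4, and the median of the list by library was 1.16, 0.84, 0.38 and 0.25 above the control mean in UVB libraries 1 to 4. All 16 genes of the list with a RefSeq promoter held a CCAAT box there, against 41.1% of all genes with a promoter. The sebaceous gland list had 13 of 22 higher and 2 lower (median 0.53). Elovl3, a fatty acid elongase of sebaceous and hair lipids, rose from between 57.1 and 97.8 CPM in controls to between 184 and 481 CPM after UVB (2.21 ± 0.28, adjusted p = 7.83e-05), and Far1, which makes fatty alcohols for waxes, by 1.15 ± 0.14. Scd3, a desaturase gene of the gland, fell from between 302 and 591 CPM in controls to between 99.9 and 252 CPM after UVB (-1.38 ± 0.28, adjusted p = 0.00185). Other sebocyte markers (Awat1, Awat2 and Mc5r) were detected in both groups.

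In the TNF pathway single genes moved. Tnf itself was at 0.826, 1.65, 1.33 and 1.497 CPM in controls and 0.498, 0.913, 3.65 and 1.59 CPM after UVB (0.34 ± 0.46, adjusted p = 0.611), with only KO UVB 3 above every control and a difference of -0.38 without it. Of 41 TNF superfamily ligand and receptor genes 4 rose and 5 fell (median -0.05), so that 22% were called against 32.3% of all tested genes. Without KO UVB 3 and 4 together 2 were higher and 10 lower. Tnfrsf10b, the death receptor for TRAIL and a p53 target, was at 4.08, 5.17, 5.43 and 5.38 CPM in controls and 8.81, 8.39, 8.402 and 7.79 CPM after UVB (0.73 ± 0.11, adjusted p = 0.000306). Tnfrsf18, encoding GITR, rose from between 8.797 and 15.2 CPM in controls to between 20.1 and 24.4 CPM after UVB (0.83 ± 0.15). Receptors of the follicle and nerve fell, among them Edar, the ectodysplasin receptor of hair placodes (-1.49 ± 0.29), and Ngfr, a neurotrophin receptor, from between 11.6 and 19.9 CPM in controls to between 6.79 and 7.802 CPM after UVB (-1.13 ± 0.16). Lymphotoxin receptor gene Ltbr had a difference of 0.06 ± 0.07, adjusted p = 0.6. Among adaptors and death effectors 7 of 30 rose and 2 fell, 30% of the list. None fell without KO control 2, 3 or 4 or without KO UVB 1 or 2, and 3 rose and none fell in the 8 KO libraries alone. Ripk3, the kinase of necroptosis, was at 12.5, 8.43, 7.51 and 7.93 CPM in controls and 16.2, 15.6, 25.8 and 14.8 CPM after UVB (0.99 ± 0.19, adjusted p = 0.00144). Casp8 rose by 0.49 ± 0.10, Tradd by 0.29 ± 0.07 and the deubiquitinase gene Otulin by 0.31 ± 0.08. In a model of the 8 KO libraries alone the adjusted p of Tradd was 0.0521.

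Among 30 NF-kB subunits and feedback targets 4 rose and 1 fell (median 0.09), or 16.7% of the list. The counts were 2 higher and 3 lower without KO UVB 3, 2 higher and 6 lower without KO UVB 3 and 4 together, and 1 of each in the 8 KO libraries alone. Ptgs2, encoding cyclooxygenase-2, was at 1.604, 2.46, 1.81 and 2.94 CPM in controls and 8.46, 6.105, 16.02 and 3.69 CPM after UVB (1.96 ± 0.39, adjusted p = 0.00193). Nfkbia, encoding the inhibitor of NF-kB, was lower in all UVB libraries, at 109 to 171 CPM in controls and 86.2 to 105 CPM after UVB (-0.50 ± 0.15, adjusted p = 0.0165), a call lost without KO control 2 (adjusted p 0.0682). Subunit gene Nfkb1 had a difference of 0.02 ± 0.08, adjusted p = 0.862. Il6 stood at 0.3402, 0.212, 0.1597 and 0.166 CPM in controls and 0.498, 0.856, 7.16 and 0.546 CPM after UVB (3.33 ± 0.83, adjusted p = 0.00678). KO UVB 3 was again far above the rest, and the difference without it was 1.49. The AP-1 subunit gene Fosl1 rose from between 1.01 and 1.94 CPM in controls to between 2.69 and 11.2 CPM after UVB (1.86 ± 0.43, adjusted p = 0.00476) and the stress gene Ier5 by 0.67 ± 0.12, in a list of 22 immediate early genes of which 4 rose and 18 were not called, with 3 lower without KO UVB 3 and 4 together. Calls made up 18.2% of the immediate early list, against 32.3% of all tested genes. Il6ra, encoding the IL-6 receptor, fell by 0.50 on the log2 scale and Il20ra from between 13.1 and 27.3 CPM in controls to between 3.77 and 7.65 CPM after UVB (-1.89 ± 0.23, adjusted p = 5.3e-05).

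Leukocyte genes differed widely among the UVB libraries. Of 18 neutrophil genes 14 rose and 1 fell (median 1.84). The number higher was 5 without KO UVB 3, 4 without KO UVB 3 and 4 together, 6 without KO control 2 or 3, 7 without KO control 4 and 6 in the 8 KO libraries alone. S100a9, an abundant neutrophil protein also made by activated keratinocytes, was at 9.14, 4.196, 1.86 and 8.98 CPM in controls and 13.2, 17.6, 167 and 21.4 CPM after UVB (3.19 ± 0.77, adjusted p = 0.006), and its difference was 1.53 without KO UVB 3, while its adjusted p was 0.0562 without KO UVB 3 and 4 together. Cxcr2, the neutrophil chemokine receptor, stood at 1.65, 0.763, 0.532 and 0.721 CPM in controls and 7.42, 6.68, 31.7 and 2.596 CPM after UVB (3.71 ± 0.66, adjusted p = 0.000834), or 2.59 without KO UVB 3. Mmp8, neutrophil collagenase, was low throughout at 0.292, 0.212, 0.373 and 0.111 CPM in controls and 1.84, 1.997, 3.37 and 1.14 CPM after UVB (3.05 ± 0.41, adjusted p = 0.000123). No control reached the lowest UVB library in these 3 genes. Summed neutrophil markers (Ly6g, Csf3r, Mmp8, Retnlg and S100a8) overlapped, at 8.63 to 21.2 CPM in controls and 18.02 to 171 CPM after UVB. The defining neutrophil marker Ly6g was at 3 counts over the controls and 9 over the UVB libraries and was not tested.

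**Figure D4:**
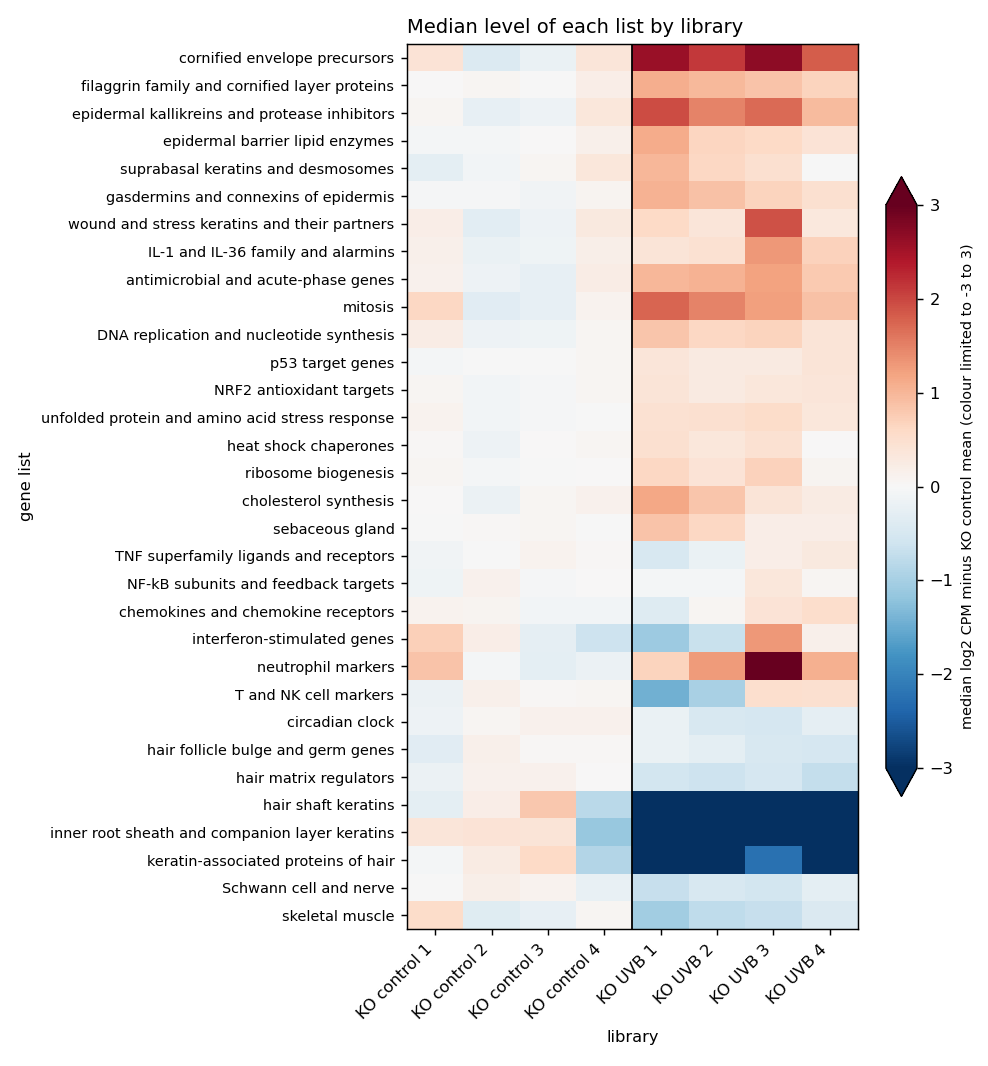
Median log2 CPM of each gene list in each KO library, relative to the mean of the 4 KO controls, with colour limited to -3 to 3. KO UVB 3 carries the highest neutrophil value (3.11 against 0.67 to 1.27) and interferon-stimulated genes run from -1.10 in KO UVB 1 to 1.29 in KO UVB 3, while the hair lists are low in all UVB libraries.

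Chemokines and their receptors had 12 of 51 higher and 2 lower (median 0.22), 27.5% of the list against 32.3% of all tested genes. The number higher was 4 without KO UVB 3, 7 without KO control 3 and 4 in the 8 KO libraries alone, and the number lower was 4 without KO control 1 and 5 without KO UVB 4. Without KO UVB 3 and 4 together 2 were higher and 11 lower (median -0.25), and with limma voom 8 and 8. Ccl27a, the keratinocyte chemokine that draws skin-homing T cells, fell from between 17.6 and 28.6 CPM in controls to between 8.66 and 16.4 CPM after UVB (-1.03 ± 0.23, adjusted p = 0.00403), and the scavenger receptor gene Ackr4 stood at 35.6, 41.6, 39.03 and 45.98 CPM in controls and 22.7, 22.3, 21.6 and 22.9 CPM after UVB (-0.86 ± 0.12, adjusted p = 0.000165). Ccl20, which draws CCR6+ cells, had 0.729, 1.36, 1.12 and 1.22 CPM in controls and 1.49, 1.54, 5.49 and 3.42 CPM after UVB (1.43 ± 0.41, adjusted p = 0.0153), and lost its call without KO UVB 3 (adjusted p 0.0679) and with limma voom (0.0976). Of 33 interferon-stimulated genes edgeR called 0, with 0 at an unadjusted p under 0.05, DESeq2 called 0 and limma voom called 1, lower. Without KO UVB 3 edgeR called 2 lower (median -0.51), and without KO UVB 3 and 4 together 16 lower (median -1.01). KO UVB 3 and 4 were the UVB libraries with the highest medians of this list, so that fall follows from leaving them out. With all libraries the median of these genes was 0.19, and the list's median by library ran -1.10, -0.66, 1.29 and 0.15 in UVB libraries 1 to 4 and 0.71, 0.19, -0.28 and -0.61 in controls 1 to 4. Iigp1, an interferon-induced GTPase gene, was at 58.8, 109, 73.96 and 44.04 CPM in controls and 16.6, 35.8, 96.1 and 179 CPM after UVB, with the groups overlapping, and its difference of 0.20 ± 0.60 became -1.45 (adjusted p 0.0871) without KO UVB 3 and 4 together.

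Gamma-delta T cell genes fell in every UVB library. Trdc, the constant region of the delta chain, was at 12.1, 16.3, 12.8 and 18.7 CPM in controls and 4.03, 2.91, 4.89 and 4.96 CPM after UVB (-1.83 ± 0.20, adjusted p = 2.72e-05). The gamma chain gene Tcrg-C1 stood at 5.25, 6.78, 4.74 and 8.15 CPM in controls and 3.33, 1.26, 2.72 and 2.78 CPM after UVB (-1.29 ± 0.24, adjusted p = 0.00108). Tcrg-V5, the gamma segment of the dendritic epidermal T cells of mouse skin, was at 1.05 to 1.695 CPM in controls and 0.0571 to 0.508 CPM after UVB (-2.49 ± 0.43, adjusted p = 0.000631), or -3.15 without KO UVB 3. None of the 3 genes overlapped between the groups. Skint7, of a family of keratinocyte genes to which the selecting factor of these T cells belongs, was at 13.5, 24.2, 40.8 and 26.6 CPM in controls and 1.79, 1.71, 4.52 and 6.19 CPM after UVB (-2.87 ± 0.37, adjusted p = 9.21e-05). In contrast Trbc2, of the beta chain, was at 14.1, 12.5, 14.3 and 13.2 CPM in controls and 30.5, 25.4, 23.3 and 17.2 CPM after UVB (0.83 ± 0.13, adjusted p = 0.000386). The whole T and NK cell list had 4 higher and 9 lower of 32, or 2 higher and 18 lower without KO UVB 3 and 4 together. The summed T cell markers (Cd3e, Trac and Trdc) were 19.2 to 31.2 CPM in controls and 5.76 to 13.7 CPM after UVB. Trdc was the largest part, at 1211 counts over the controls and 347 over the UVB libraries. Cd3e was called lower, at 671 and 276 counts, and Trac was not called, at 195 and 209 counts. Antigen presentation genes of dendritic cells overlapped, with H2-Aa at 566, 719, 574 and 601 CPM in controls and 209, 332, 765 and 1216 CPM after UVB (0.04 ± 0.38, adjusted p = 0.95), or -1.18 without KO UVB 3 and 4 together. Of 28 macrophage genes 3 rose and 25 were not called (10.7% called). The number higher was 7 without KO control 1, 8 without KO UVB 1 and 1 without KO control 2 or 3, and 2 were higher and 3 lower without KO UVB 3 and 4 together, while DESeq2 called 6 and limma voom 11 higher. The mannose receptor gene Mrc1 differed by 0.36 ± 0.24, adjusted p = 0.253.

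Hair genes fell the furthest of the gene lists. Of keratin-associated proteins, the matrix of the hair shaft, 40 of 43 fell and 3 were not called (median -5.09). In the 8 KO libraries alone, only 17 of these genes passed the count filter, and 16 fell (median -5.07). The rest passed the filter only when the WT libraries entered it. Hair shaft keratins had 11 of 14 lower and 3 not called (-4.51), and keratins of the inner root sheath and companion layer 8 of 9 lower (-4.85). In the 8 KO libraries alone 10 of 12 shaft keratins and 8 of 8 of the sheath and companion list fell. Krt25, an inner root sheath keratin, was at 34.1, 29.5, 33.5 and 8.98 CPM in controls and 0.647, 0.228, 1.85 and 0.137 CPM after UVB (-5.17 ± 1.10, adjusted p = 0.00291), and its difference was -6.27 without KO UVB 3. Krt71, its type II partner, stood at 67.7, 60.1, 63.8 and 13.5 CPM in controls and 1.34, 0.742, 3.55 and 0.4099 CPM after UVB (-5.06 ± 1.19, adjusted p = 0.00539), or -5.94 without KO UVB 3. KO control 4 was the lowest control for both, yet stood above every UVB library. Trichohyalin (Tchh), the matrix of the sheath, went from 105, 160.2, 138 and 38.6 CPM in controls to 16.1, 8.79, 11.9 and 5.69 CPM after UVB (-3.38 ± 0.69, adjusted p = 0.00232). The shaft keratin Krt81 was at 1.66 to 5.64 CPM in controls and 0 to 0.0571 CPM after UVB, at too few counts for a fold. Krt75, of the companion layer, overlapped between the groups (-1.07 ± 0.25, adjusted p = 0.00517). In WT controls Krt71 was at 281 to 741 CPM. The 4 hair markers (Krt31, Krt33a, Krt71 and Krt25) summed to 26.1 to 109 CPM in KO controls and 0.638 to 5.77 CPM after UVB, none of them at 0 over either group.

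Regulators of the hair matrix and genes of the bulge, the stem cell region of the follicle, fell as well, by less. Of 28 matrix regulators 18 fell and 2 rose (median -0.72), and of 24 bulge and germ genes 11 fell and 13 were not called (median -0.39), with 7 lower without KO UVB 3 and 4 together and 6 in the 8 KO libraries alone. Ptch1, the Hedgehog receptor and target, was at 47.2, 53.3, 54.2 and 38.05 CPM in controls and 30.7, 28.8, 23.9 and 24.1 CPM after UVB (-0.84 ± 0.13, adjusted p = 0.000288). Lgr6, a stem cell receptor of the follicle, stood at 39.5, 59.3, 66.3 and 55.4 CPM in controls and 36.1, 28.01, 23.96 and 18.7 CPM after UVB (-1.05 ± 0.23, adjusted p = 0.00332). Dkk3, a secreted protein of the bulge, fell by 0.66 on the log2 scale and Crym, a marker of the hair matrix, from between 3.44 and 6.19 CPM in controls to between 0.896 and 1.64 CPM after UVB (-1.77 ± 0.27). The arginine deiminase gene Padi4 rose by 1.11 ± 0.21. In these genes the UVB libraries lay outside the range of the controls.

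Pigment cell genes did not move as a block. Of 17 melanosome and pigment synthesis genes 1 rose and 1 fell (median -0.03). Dct, a melanin synthesis enzyme and melanoblast marker, was at 17.4, 14.03, 10.1 and 9.59 CPM in controls and 14.1, 11.9, 11.3 and 10.3 CPM after UVB (-0.10 ± 0.27, adjusted p = 0.797). Tyrp1 (0.33 ± 0.34, adjusted p = 0.482) and Pmel (0.13 ± 0.28, adjusted p = 0.754) were not called, and their groups overlapped. Tyr (log2 difference 0.52, adjusted p = 0.439) and Mlana (log2 difference -0.62, adjusted p = 0.128) were not called either. Mlana was called lower without KO control 1 (adjusted p 0.0195) or KO UVB 1 (0.0454) and with limma voom (0.0127). The gene that rose, Rab38, a small GTPase that carries cargo to melanosomes and is also expressed in other cells, was at 18.6, 16.4, 17.2 and 20.1 CPM in controls and 54.7, 41.5, 37.02 and 33.2 CPM after UVB (1.2 ± 0.15, adjusted p = 6.91e-05). Summed melanocyte markers (Dct, Tyr, Tyrp1, Pmel and Mlana) spanned 23.9 to 38.8 CPM in controls and 23.8 to 37.7 CPM after UVB. Of 17 lineage regulators and receptors 7 fell (4 without KO control 2, without KO control 3 or in the 8 KO libraries alone) and 10 were not called. Sox10, which acts in melanocytes and Schwann cells, was at 9.77, 14.9, 14.6 and 9.59 CPM in controls and 7.32, 8.56, 8.54 and 10.1 CPM after UVB (-0.50 ± 0.15, adjusted p = 0.0165), a call lost without KO control 2 or 3 or KO UVB 1 (adjusted p 0.0513 to 0.0662) and in the 8 KO libraries alone (0.0912). Kit, the receptor for stem cell factor, was not called (-0.20 ± 0.12, adjusted p = 0.194), nor was its ligand gene Kitl (0.24 ± 0.10, adjusted p = 0.0749), which passed the test without KO control 1 (adjusted p 0.00466) or without KO UVB 1 (0.0422). Tgfb2, a niche signal to melanocyte stem cells, fell from 36.5, 50.9, 56.1 and 71.7 CPM in controls to 24.04, 35.1, 35.96 and 38.4 CPM after UVB, with overlap (-0.69 ± 0.18, adjusted p = 0.0103), and its adjusted p in the 8 KO libraries alone was 0.0503. Hgf, encoding the ligand of Met, rose by 0.91 ± 0.17 while Met fell by 0.49 on the log2 scale. Schwann cell and nerve genes, which share Sox10 with the melanocyte lists, had 9 of 18 lower and 9 not called (median -0.51).

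In the dermis the collagen I genes fell. Col1a1 was at 14827, 18314, 20159 and 18456 CPM in controls and 8793, 10525, 8893 and 10265 CPM after UVB (-0.90 ± 0.24, adjusted p = 0.00902), and Col1a2 fell by 0.99 on the log2 scale, whereas Col3a1 had a difference of -0.16 ± 0.23, adjusted p = 0.62. Of 29 collagen and dermal matrix genes 6 fell and 1 rose (median -0.10), with 4 higher without KO control 1 and 5 higher with limma voom. With all libraries 24.1% of the list was called, against 32.3% of all tested genes. Fmod, a collagen-binding proteoglycan gene, fell from between 28.2 and 52.1 CPM in controls to between 17.7 and 22.4 CPM after UVB (-0.92 ± 0.17). Timp1, an inhibitor of matrix proteases, rose from between 3.81 and 11.7 CPM in controls to between 13.98 and 46.7 CPM after UVB (2.02 ± 0.39, adjusted p = 0.00139). Its list, 31 matrix proteases and inhibitors, had 7 higher and 3 lower (median 0.21). The share called, 32.3%, was that of all tested genes.

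Skeletal muscle genes, from the muscle sheet under the skin, had 22 of 37 lower and 15 not called (median -0.74). The count was 11 without KO control 1, 13 without KO UVB 1 14 without KO UVB 2 or 3 and 12 in the 8 KO libraries alone. Ttn, encoding titin, was at 3675, 3089.8, 3541 and 2804 CPM in controls and 1295, 1573, 1453 and 1564 CPM after UVB (-1.16 ± 0.15, adjusted p = 0.000113). Neb, encoding nebulin, stood at 1915, 1564, 1797 and 1396 CPM in controls and 693, 752, 786 and 670.5 CPM after UVB (-1.2 ± 0.14, adjusted p = 3.5e-05), and the calcium release channel gene Ryr1 fell by 1.14 on the log2 scale. No UVB library reached any control in these 3 genes. In the whole list the groups did not overlap for 15 of 37 genes, against 25.1% of all tested genes. Summed muscle markers (Ckm, Acta1, Myh4 and Mylpf) were 13911 to 23124 CPM in controls and 5695 to 10914 CPM after UVB. Myh4, with the most counts of the 4 over the controls (549658), was not called (log2 difference -1.195, adjusted p = 0.0639). It was called in the 8 KO libraries alone (adjusted p 0.0231). How much muscle each piece of skin held is not given by the labels.

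Clock genes had 8 of 19 lower and 1 higher (median -0.45), with 4 lower without KO UVB 2, KO UVB 3 or KO control 4 and 5 without KO control 3, and 3 higher without KO UVB 4. Cry2, a repressor of the clock, was at 63.2, 87.5, 80.9 and 91.8 CPM in controls and 56.4, 55.4, 46.7 and 61.5 CPM after UVB (-0.56 ± 0.12, adjusted p = 0.00259), and Bhlhe41 fell by 0.72 on the log2 scale. The hour of sampling is not stated in the labels. Nr3c1, the glucocorticoid receptor gene, fell from between 221 and 243 CPM in controls to between 164 and 198 CPM after UVB (-0.36 ± 0.08) and its target Fkbp5 rose from 99.3, 93.9, 84.2 and 65.4 CPM in controls to 201, 131, 118 and 135 CPM after UVB (0.77 ± 0.19, adjusted p = 0.00605). Another target, Tsc22d3, differed by -0.29 ± 0.21, adjusted p = 0.319. The glucocorticoid list of 16 genes had 2 higher and 3 lower, 31.2% of the list against 32.3% of all tested genes.

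Several changes lay in gene clusters, read here by RefSeq gene order on GRCm38.p6. In the epidermal differentiation complex on chromosome 3, from S100a10 to S100a1, 46 of 62 tested genes rose and 5 fell (median 1.46). The serpin B cluster on chromosome 1 had 9 of 11 higher, including Serpinb3a, a protease inhibitor of stressed epidermis at 0 to 0.535 CPM in controls and 4.28 to 23.2 CPM after UVB. All 3 tested stefin A genes on chromosome 16, cysteine protease inhibitors, rose, with Stfa3 at 27.6, 2.59, 1.704 and 10.8 CPM in controls and 489.5, 431, 421 and 199.7 CPM after UVB (5.18 ± 0.71, adjusted p = 0.000165). The Stfa3 difference was 6.30 without KO control 1. In the type I keratin cluster on chromosome 11, which holds the hair keratin and keratin-associated protein genes as well, 39 of 56 fell and 3 rose (median -4.07), and in the type II cluster on chromosome 15 there were 10 lower and 9 higher among 26 (median -0.70). Of 43 keratin-associated protein genes tested, only 17 passed the count filter in the 8 KO libraries alone. The type I count and median may thus rest in part on genes admitted by the WT libraries. Clusters were not counted in the KO libraries alone. Neighbouring genes share position and gene family, so members of a cluster are not independent.

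The UVB differences of KO and WT skin were set side by side, from 1 model of all 16 libraries, with no libraries in common between them. Of the 5666 calls in KO skin, 39.6% were also called in WT skin (68.2% of the 3290 WT calls), and 2235 of these 2244 had the same direction. A further 3422 genes were called in KO and not in WT, and 2949 of them had the same sign in WT. The difference between the genotypes was itself called for 4 genes (0.0228% of those tested), with 2238 at an unadjusted p under 0.05, while DESeq2 called 212 and limma voom 438. The count moved with single libraries. It was 110 without KO UVB 4, 30 without KO control 1, 7 without KO UVB 1 and 2 without KO control 4, and 67 without KO UVB 3 and 4 together.

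**Figure D5:**
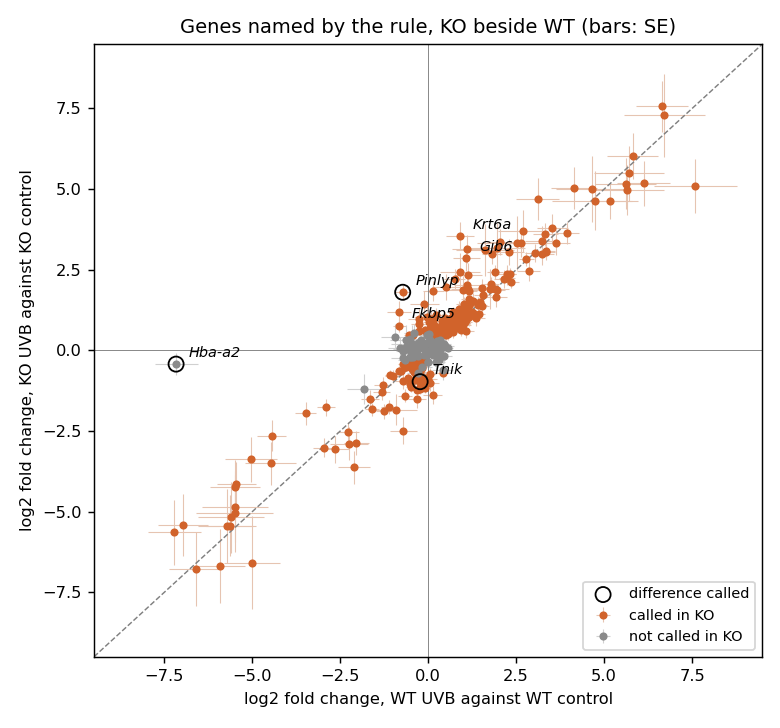
Log2 fold change of UVB over control in KO skin against that in WT skin for the genes chosen by the naming rule, with bars of 1 SE and rings around genes whose difference between the genotypes was called. Krt6a (3.55 ± 0.45 in KO, 0.90 ± 0.41 in WT), Gjb6 and Fkbp5 lie above the diagonal.

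The called genes were Hba-a2, Pinlyp, Tnik and Angptl8, the last outside the naming rule and named after its value was seen. Pinlyp, a secreted phospholipase inhibitor gene, was at 3.94, 3.603, 3.62 and 4.44 CPM in KO controls and 19.5, 14.5, 12.2 and 8.197 CPM after UVB (1.8 ± 0.23), and fell in WT skin (-0.73 ± 0.21, adjusted p = 0.0276), an interaction of 2.53 ± 0.31, adjusted p = 0.00458. Tnik, a kinase gene of Wnt signalling, stood at 39.7, 44.1, 44.1 and 45.9 CPM in KO controls and 23.4, 23.2, 20.7 and 21.4 CPM after UVB (-0.97 ± 0.07), with -0.23 ± 0.07 in WT skin (interaction -0.74 ± 0.10, adjusted p = 0.0113). Hba-a2, an alpha-globin gene, did not pass the test in KO skin (-0.43 ± 0.35) and differed in WT skin by -7.17 ± 0.61 (interaction 6.74 ± 0.74, adjusted p = 0.00255). Without KO UVB 2 the Hba-a2 difference in KO skin was -0.96 (adjusted p 0.0199). Its WT controls were at 8.26 to 19.8 CPM and its WT UVB libraries at 0.0461 to 0.145 CPM, and Hba-a2 shares near-identical sequence with Hba-a1. Angptl8, a secreted regulator of lipoprotein lipase, differed by 0.94 ± 0.48 in KO (adjusted p = 0.150) and -3.76 in WT skin (interaction 4.69 ± 0.66, adjusted p = 0.0113), at under 1 CPM in every KO library. Without KO control 4 the interactions of Tnik (adjusted p 0.0935) and Angptl8 (0.063) were not called. Just past the threshold stood Klf11 (interaction -0.92 ± 0.15, adjusted p = 0.0576), Sox6 (-0.96 ± 0.16, adjusted p = 0.0576) and Fkbp5 (1.59 ± 0.27, adjusted p = 0.0576). Klf11, a transcriptional repressor gene, was at 23.9, 33.2, 27.2 and 24.7 CPM in KO controls and 11.9, 11.2, 10.6 and 12.6 CPM after UVB (-1.24 ± 0.11, adjusted p = 5.63e-06), without overlap. Krt6a, the wound keratin with the widest gap between genotypes among those named above, had an interaction of 2.64 ± 0.58, adjusted p = 0.109, and in the collagen gene Col1a1 it was -0.91 ± 0.33, adjusted p = 0.275, so neither difference passed.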

How the data were processed

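RNA from dorsal skin was extracted with Trizol, selected for poly(A) and made into directional libraries with the NEBNext Ultra II kit, per the labels' protocols. The deposited values are counts of reads per gene for each library, and the column for the reverse strand was used, which held 95.48% to 96.09% of the strand-assigned reads in the KO libraries. The authors used STAR and build GRCm39, per the submitters' processing notes, which give no version, and the annotation is not stated there. Lines for unmapped reads (11.93% to 16.88% in KO libraries), reads in no gene (7.547% to 10.17%) and ambiguous reads (1.186% to 1.421%) entered neither library sizes nor tests. Symbols came from GENCODE M21 by gene ID (52083 of 55359 matched). In a combined table of the series, 17 value columns could not be tied to a sample and were not used.

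Counts of all 16 libraries were fitted in 1 model of 4 group means with edgeR 4.0.16 (quasi-likelihood test, robust, trimmed mean of M-values, filterByExpr) in R 4.3.3, and tested for KO UVB against KO control, for WT likewise, and for the difference of both. p-values were adjusted by Benjamini-Hochberg over 17531 genes, and the standard error is the size of the log2 fold change divided by the square root of F. Alternatives were DESeq2 1.42.0, limma 3.58.1 voom with sample quality weights, other scalings and filters, both strands, the KO libraries alone, a replicate block and each KO library left out. The fit was tested on simulated data.

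Members and gene lists were chosen with earlier results of these data known. Named genes were those of fixed interest, the 12 called genes furthest up and down (mean count of at least 50, no overlap), per list the 4 called genes of smallest adjusted p and the 2 of highest CPM, and the 10 of smallest interaction p. Some genes chosen by these rules are not reported here. Promoters are from RefSeq on GRCm38.p6.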

Additional observations from a re-analysis of the deposited data

Results flagged for a closer look

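Libraries that stood far from the other 3 of their group were looked for in every gene named in the text, by Dixon's ratio of the gap to the nearest value over the whole range against its critical value for 4 values. Among 364 groups of 4 libraries (182 genes in KO controls and KO UVB) 25 passed, and chance gives about 1 in 20. KO UVB 3 was the library in 7 of these and KO UVB 4 in 5.

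KO UVB 4 was low for Krt16 (201 CPM against 1120 to 1280 in UVB libraries 1 to 3), Krt6a (237 against 1600 to 1770), Krt6b (233 against 1660 to 1800), Gsdmc (24.8 against 93 to 103) and Padi4 (12.8 against 22.3 to 22.8). KO UVB 3 was high for Il1b (78.2 CPM against 3.38 to 8.79), Il6 (7.16 against 0.498 to 0.856), S100a9 (167 against 13.2 to 21.4), Cxcr2 (31.7 against 2.6 to 7.42), Epgn (39.3 against 9.36 to 13), Hspa5 (824 against 483 to 541) and Ripk3 (25.8 against 14.8 to 16.2). KO UVB 1 was high for Lce1i (207 CPM against 131 to 143) and KO UVB 2 for Ryr1 (473 against 420 to 423).

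Among the controls, KO control 1 was apart in 8 genes: high for Mki67 (76.9 CPM against 50.7 to 53.7), Calr (467 against 365 to 379), Canx (330 against 292 to 295), Calml3 (131 against 98.2 to 103), Hgf (4.03 against 3.05 to 3.14) and Akr1d1 (0.826 against at most 0.106), and low for Ppl (368 against 549 to 585) and Il6ra (114 against 150 to 157). KO control 2 was low for Elovl4 (860 CPM against 998 to 1030) and Dnaja1 (71.9 against 82.5 to 83.5), and KO control 4 for Krt71 (13.5 against 60.1 to 67.7).

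The UVB effect differed between KO and WT skin, by the interaction test of edgeR, for Hba-a2 (6.74 on the log2 scale, KO minus WT), Angptl8 (4.69), Pinlyp (2.53) and Tnik (-0.741).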

How the results depend on the processing

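No call of KO UVB against KO control turned in sign under another test, scaling, filter or single left-out KO library, whereas 6 did with counts from both strands and 7 without KO UVB 3 and 4 together. Numbers of calls ranged from 4280 to 6350 when each KO library was left out in turn (2348 to 3552 higher, 1932 to 2798 lower). A model of the 8 KO libraries alone, with 16655 genes tested and fewer libraries to estimate the spread, gave 3506 calls, 1389 of them lower. Interaction calls, 4 in all, were 212 with DESeq2, 438 with limma voom, 22 without a filter on low counts, 67 without KO UVB 3 and 4 together, and 2 to 110 with each KO library left out in turn; the cause was not tested. Among named genes no called difference turned in sign, whereas 55 differences of 18 genes that were not called did, and 1 of these was called there: H2-Aa, with -1.18 without KO UVB 3 and 4 together. Of 3254 differences of named genes under these alternatives, 39 lost the call and 22 gained it in the same direction. Of 1008 counts of higher list members 138 moved by over 1.5 times, and of 1008 counts of lower members 196 did. No label says what the library numbers mark. Deviations of same-numbered control and UVB libraries correlated at -0.169, 0.0144, -0.141 and -0.042, which shows no pairing by number but cannot tell whether they shared a batch. A fit with the replicate block gave 4503 calls and 1 interaction call, Hba-a2. In that fit 3 of 18 neutrophil genes were higher. Krt5 (adjusted p 0.0892), Lor (0.139), Il1b (0.115) and S100a9 (0.0796) lost the call there.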

Other observations

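Among genes of no list, some changed as far as the cornified and hair genes. Tdh, a threonine dehydrogenase gene, was at 2.53, 0.254, 0 and 0.555 CPM in KO controls and 50.02, 28.8, 20.2 and 11.6 CPM after UVB (5.03 ± 0.66, adjusted p = 0.000106), or 6.69 without KO control 1. Akr1d1, a steroid reductase gene, stood at 0.826, 0.0848, 0.106 and 0 CPM in controls and 17.8, 11.6, 5.401 and 1.28 CPM after UVB (5.09 ± 0.84, adjusted p = 0.000517), or 6.99 without KO control 1. Both were above every control in every UVB library and lowest there in KO UVB 4. Lower genes included P2rx2, an ATP-gated channel, at 5.25, 11.4, 10.6 and 9.65 CPM in controls and 0.597, 0.742, 1.38 and 1.78 CPM after UVB (-3.01 ± 0.30, adjusted p = 1.33e-05), and Lama1, a laminin of basement membranes, at 2.92, 12.7, 11.4 and 10.9 CPM in controls and 0.498, 1.198, 0.969 and 1.82 CPM after UVB (-3.07 ± 0.42, adjusted p = 0.000147). Hamp2, a relative of the iron hormone hepcidin, fell from between 10.01 and 42.6 CPM in controls to between 0.199 and 4.83 CPM after UVB (-3.51 ± 0.68, adjusted p = 0.00162), or -4.21 without KO UVB 4, and H2-M5, a nonclassical MHC class I gene, from between 6.804 and 14.3 CPM in controls to between 1.26 and 3.14 CPM after UVB (-2.54 ± 0.31, adjusted p = 6.51e-05). For each of these 4 genes all UVB libraries lay below all controls. The naming rule for the genes furthest up and down required no overlap of the groups. The separation of these genes, Tdh and Akr1d1 included, is thus no separate support.

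Genes of vessels, fat and mast cells had few calls. Of 22 endothelial genes 1 fell and 21 were not called, while 3 were higher without KO UVB 1, 2 without KO UVB 3 or 4, and 5 with limma voom. Vwf, the clotting factor carrier, differed by 0.04 ± 0.13, adjusted p = 0.826. Of 21 dermal adipocyte genes 1 rose and 20 were not called, whereas 6 were lower without KO UVB 4 (median -0.41), 3 without KO UVB 3 and 4 together and 5 with limma voom. Cfd, the adipocyte protease adipsin, differed by -0.19 ± 0.27, adjusted p = 0.629. Of 13 mast cell genes edgeR called 0, with 3 at an unadjusted p under 0.05, while DESeq2 called 2 and limma voom 3, all higher, and the protease gene Mcpt4 had a difference of 0.16 ± 0.27, adjusted p = 0.681, or 0.60 without KO control 1 (adjusted p 0.025). Of 42 nuclear genes of oxidative phosphorylation 6 rose and 36 were not called, and this count was 14 without KO control 1 13 with limma voom and 3 without KO control 2 or 3. Ndufa4, a subunit gene of the respiratory chain, rose from between 118 and 225 CPM in controls to between 269 and 372 CPM after UVB (0.82 ± 0.18, adjusted p = 0.00354). Among red cell genes Hbb-bs, a beta-globin gene, differed by 0.08 ± 0.34, adjusted p = 0.876.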
